A study of Mus musculus with 52 samples.

Results

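Interferon-stimulated genes are switched on in cells that have sensed an interferon. Type I interferon binds its receptor at the cell surface, the kinases Jak1 and Tyk2 become active, and a complex that includes Irf9 then binds interferon-stimulated response elements in the promoters of its targets. Many of the encoded proteins act against viruses, others limit or extend the response itself, and most tissues hold a low level of them without infection.

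The 9 genes described here are Ifit1, Ifit2, Ifit3, Irf7, Isg15, Oas1a, Usp18, Ifi44 and Rsad2, out of 39144 genes listed in the study's tables. They were chosen by name, with values of these same tables already known, so every level and difference of theirs is a description and none was tested. All 9 were listed in every tissue, which gave 153 group means.

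RNA was sequenced from male wild-type mice and from male mice homozygous for a germline deletion of the Tug1 locus (Tug1-/-), a long noncoding RNA gene whose body was replaced by lacZ in all cells. Organ and fibroblast samples came from 3 wild-type and 3 Tug1-/- samples each of heart, liver, spleen, eyes and mouse embryonic fibroblasts (MEFs, primary cells grown from embryos, passage 2), and from prostate of 3 wild-type and 2 Tug1-/- mice, on a mixed C57BL/6J and 129S6 background without the Neo cassette. Testes came from 4 wild-type mice (C57BL/6J, no Neo), 4 Tug1-/- mice and 3 rescue mice (both C57BL/6J with Neo and lacZ), so that the Neo and lacZ labels differed together with the genotype. Rescue mice were Tug1-/- with a tet-responsive Tug1 transgene, tg(Tug1), and the CAGs-rtTA3 activator, and they alone were on doxycycline food from the day of the plug. The labels give no ages. A brain comparison is in the tables, but its libraries are not among the 52 samples of the series.

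Each value is the authors' mean over a group in TPM (each transcript's share of all transcripts, scaled to a fixed total), a level corrected for gene length. As a share, it also depends on the other transcripts of a tissue. The liver genes Alb, Apoa1 and Ttr, for example, summed to 120615 TPM in wild-type liver. Orders and spans of levels between tissues carry that limit. The tables read here hold no values of single samples, so neither a spread nor a test could be computed. The authors' own errors and p-values were deposited but not used here. A difference between 2 group means is therefore not set against the spread between mice, and neighbours in any order of levels may not differ. Differences are log2 ratios of mean TPM with 0.1 TPM added to each mean, which understates the ratio of the lowest genes. In whole organs, more cells of a responding type and more RNA per cell cannot be told apart.

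The knocked-out gene was lost from every Tug1-/- mean. Tug1 stood between 0.0825% and 2.21% of its wild-type mean, the highest share being that of testes, where it was listed at 40.1 TPM in wild type, 0.885 in Tug1-/- and 1.60 in rescue. The 3 defining markers of each tissue were all present in its own means, the lowest being Msmb in prostate with 9.65 TPM in wild type.

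Of the 9 genes, 5 carry, in the stretch before their transcription start, the 10-letter core of the interferon-stimulated response element, GAAANNGAAA on either strand (TTTCNNTTTC when read on the other). The stretches are shown because this element is the sequence that links the genes to the pathway, and the letters of each match are in capitals. They are RefSeq sequences on GRCm38.p6, read 5′ to 3′ on the strand of the gene, and each lies upstream of the gene's annotated start in the promoter, outside its exons. Their places are chr19:34640765-34640833 on the plus strand for Ifit1, chr19:34583353-34583436 on the plus strand for Ifit3, chr4:156200855-156200916 on the minus strand for Isg15, chr5:120907526-120907565 on the minus strand for Oas1a and chr12:26456543-26456592 on the minus strand for Rsad2.
Ifit1: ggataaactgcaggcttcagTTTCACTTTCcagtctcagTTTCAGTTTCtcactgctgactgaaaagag
Ifit3: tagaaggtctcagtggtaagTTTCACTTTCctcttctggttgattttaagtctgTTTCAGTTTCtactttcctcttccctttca
Isg15: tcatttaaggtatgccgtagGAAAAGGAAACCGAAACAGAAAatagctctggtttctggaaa
Oas1a: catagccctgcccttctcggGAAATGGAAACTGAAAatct
Rsad2: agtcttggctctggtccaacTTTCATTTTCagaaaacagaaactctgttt

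Ifit1 and Ifit3 each held 2 separate matches, and the first letters after each TTTC, ac and then ag, came in the same order in both genes. Isg15 held 3 matches and Oas1a held 2, in each case overlapping in 1 run, and Rsad2 held 1. The last match ended 4 bases before the RefSeq start in Oas1a, 56 before it in Isg15, 75 in Ifit1, 110 in Rsad2 and 112 in Ifit3. The windows read ran from 250 bases before to 50 after the start, and those of Ifit2 (2 windows), Irf7 and Ifi44 held no run of these letters. Usp18 has no window in the sequence table. The core was found in 3.99% of 27025 genes and in 3.44% of 32851 windows of the same length. Among other lists of the pathway it was found in 18 of 36 further interferon-stimulated genes, in 10 of 12 genes induced by interferon-gamma, in 11 of 20 interferon genes, in 3 of 13 nucleic acid sensors and their factors, in 3 of 13 genes of MHC class I antigen presentation and in 1 of 10 receptors and signal transducers. A match is a description of the letters and not a bound site.

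The wild-type level of all 9 genes was lowest in testes, and that of 8 of them was highest in spleen. The exception was Ifit3, with 67.3 TPM in eyes and 58.8 in spleen. Between the highest and the lowest tissue the wild-type mean of Rsad2 spanned 121-fold, Isg15 67.8-fold, Oas1a 54.6-fold, Ifit3 38.5-fold, Ifit2 36.6-fold, Ifit1 36.1-fold, Irf7 31.8-fold, Usp18 23.6-fold and Ifi44 11.2-fold. The summed wild-type level of the 9 genes was 361 TPM in spleen, 165 in eyes, 86.3 in heart, 62.9 in liver, 54.7 in brain, 41.4 in MEFs, 39.2 in prostate and 8.10 in testes.

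**Figure D1:**
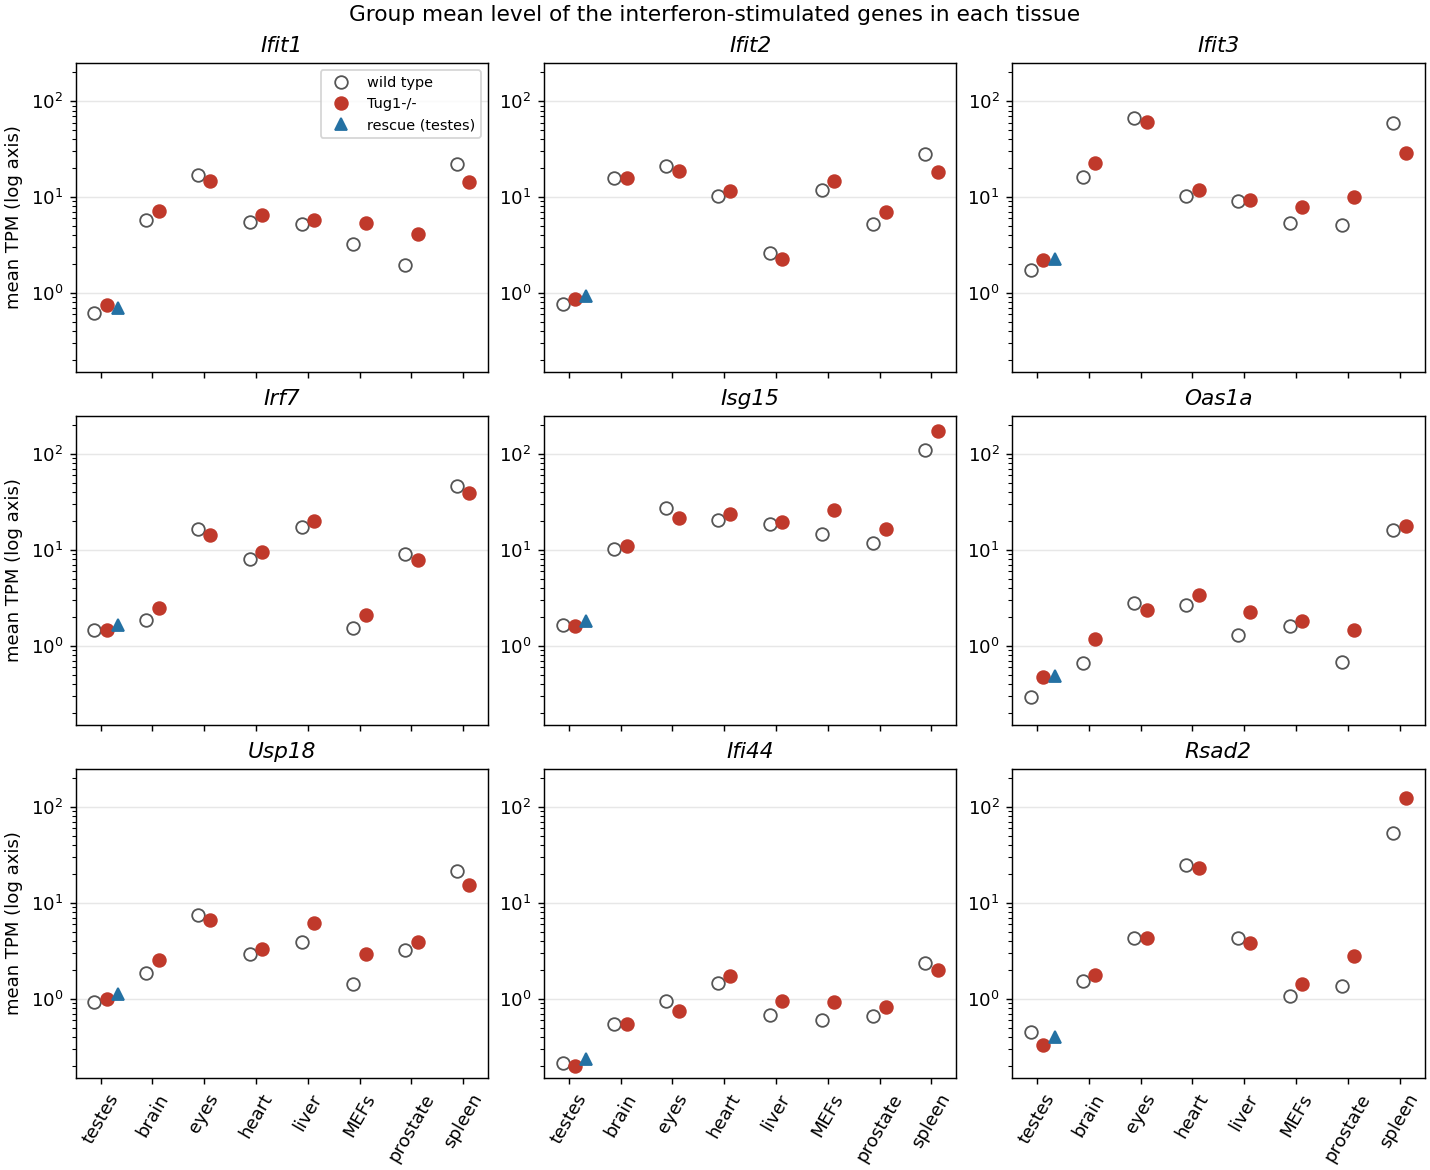
Group mean level in TPM on a log axis (vertical) of each interferon-stimulated gene in 8 tissues (horizontal), with open circles for wild type, filled circles for Tug1-/- and a triangle for rescue testes. Testes hold the lowest wild-type mean in all 9 panels, and spleen holds the highest in 8 of them. The points are the authors' means and carry no error bars because only means were read.

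The Ifit genes encode proteins with tetratricopeptide repeats that bind foreign RNA, and Ifit1 recognises RNA without the host's cap methylation. They are neighbours on chromosome 19, all on the plus strand, within 99.3 kb of GRCm38: Ifit2 at 34550694 to 34576419, Ifit3 at 34583531 to 34588731 and Ifit1 at 34640871 to 34650009. Ifit3 has a near-identical neighbour, Ifit3b, so that its count of uniquely mapped reads is uncertain.

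Ifit1 had wild-type means of 22.2 TPM in spleen, 17.1 in eyes, 5.82 in brain, 5.55 in heart, 5.27 in liver, then 3.26 in MEFs, 1.97 in prostate and 0.615 in testes. Its Tug1-/- means were 14.3 TPM in spleen, 14.7 in eyes, 7.23 in brain, 6.54 in heart, 5.74 in liver, then 5.37 in MEFs, 4.09 in prostate and 0.753 in testes. It was thus higher in the Tug1-/- mean in 6 of 8 tissues, with the top of its range in prostate (log2 difference 1.02) and the bottom in spleen (-0.63).

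Ifit2 had wild-type means of 28.2 TPM in spleen, 20.9 in eyes, 16.0 in brain, 11.8 in MEFs, 10.2 in heart, 5.23 in prostate, 2.59 in liver and 0.770 in testes. In Tug1-/- samples the means were 18.1 TPM in spleen, 18.7 in eyes, 15.7 in brain, 14.8 in MEFs, 11.5 in heart, 6.97 in prostate, 2.26 in liver and 0.864 in testes. The mean was higher in Tug1-/- in 4 of 8 tissues, and the log2 differences ran from -0.64 in spleen to 0.41 in prostate.

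Ifit3 had wild-type means of 67.3 TPM in eyes, 58.8 in spleen, 16.3 in brain, 10.2 in heart, 9.18 in liver, then 5.32 in MEFs, 5.09 in prostate and 1.75 in testes. The corresponding Tug1-/- means were 61.3 TPM in eyes, 28.8 in spleen, 22.9 in brain, 11.96 in heart, 9.23 in liver, then 7.95 in MEFs, 9.99 in prostate and 2.18 in testes. The ends of its range were the same tissues as for the other Ifit genes, -1.03 in spleen and 0.96 in prostate on the log2 scale. In the Tug1-/- means the eyes, and not the spleen, held the highest level of all 3 Ifit genes.

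Isg15 encodes a ubiquitin-like protein that is joined to other proteins, and Usp18 encodes the protease that takes it off again and that also damps signalling from the type I receptor. Isg15 (chr4:156199424-156200818, minus strand) had wild-type means of 112 TPM in spleen, 27.4 in eyes, 20.7 in heart, 18.5 in liver, then 14.8 in MEFs, 11.9 in prostate, 10.2 in brain and 1.65 in testes. Its Tug1-/- means were 173 TPM in spleen, 21.6 in eyes, 23.6 in heart, 19.4 in liver, then 26.4 in MEFs, 16.7 in prostate, 11.05 in brain and 1.61 in testes. It was the most abundant of the 9 genes in wild-type spleen, and its log2 differences ran from -0.34 in eyes to 0.83 in MEFs.

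Usp18 (chr6:121245906-121270917, plus strand) had wild-type means of 21.6 TPM in spleen, 7.53 in eyes, 3.88 in liver, 3.24 in prostate, 2.89 in heart, 1.84 in brain, 1.41 in MEFs and 0.915 in testes. In Tug1-/- samples the means were 15.5 TPM in spleen, 6.63 in eyes, 6.21 in liver, 3.91 in prostate, 3.32 in heart, 2.51 in brain, 2.91 in MEFs and 1.001 in testes. Its log2 difference of 0.995 in MEFs was the highest of any member there, while in spleen it was -0.48, with the sign opposite to that of Isg15.

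Oas1a encodes an oligoadenylate synthetase, an enzyme that answers double-stranded RNA with a messenger that activates RNase L. Its locus (chr5:120896256-120907521, minus strand) lies among close relatives, so its unique reads are uncertain too. Oas1a had wild-type means of 16.1 TPM in spleen, 2.77 in eyes, 2.66 in heart, 1.63 in MEFs, 1.29 in liver, 0.680 in prostate, 0.666 in brain and 0.294 in testes. The corresponding Tug1-/- means were 17.8 TPM in spleen, 2.39 in eyes, 3.43 in heart, 1.81 in MEFs, 2.24 in liver, 1.45 in prostate, 1.18 in brain and 0.473 in testes.

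Oas1a was higher in the Tug1-/- mean in 7 of 8 tissues, more than any other member. Of the 16340 genes listed in all 8 tissues with a mean of at least 1 TPM in at least 1 of them, 5.19% were higher in at least 7. Its largest log2 differences were 0.99 in prostate, 0.75 in liver and 0.74 in brain. These rest on few reads: the mean normalized count over all libraries of the tissue was 24.3 in prostate, 59.6 in liver and 6.58 in brain. The members with 6 higher tissues were Ifit1, Ifit3, Isg15 and Usp18, against 17.4% of the same 16340 genes with at least 6.

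Rsad2 encodes viperin, an antiviral enzyme of the endoplasmic reticulum. Rsad2 (chr12:26442746-26456452, minus strand) had wild-type means of 53.9 TPM in spleen, 24.6 in heart, 4.34 in eyes, 4.28 in liver, 1.54 in brain, 1.36 in prostate, 1.05 in MEFs and 0.447 in testes. Its Tug1-/- means were 123 TPM in spleen, 22.8 in heart, 4.29 in eyes, 3.85 in liver, 1.76 in brain, 2.78 in prostate, 1.42 in MEFs and 0.329 in testes. It was the most abundant of the 9 genes in wild-type heart, and its log2 difference of 1.19 in spleen, over a mean normalized count of 5811, was the highest of any member in any tissue.

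Ifi44 is an interferon-induced gene with a product of the cytoplasm. Ifi44 (chr3:151730922-151749960, minus strand) had wild-type means of 2.38 TPM in spleen, 1.46 in heart, 0.950 in eyes, 0.670 in liver, 0.656 in prostate, 0.604 in MEFs, 0.538 in brain and 0.212 in testes. In Tug1-/- samples the means were 1.97 TPM in spleen, 1.73 in heart, 0.750 in eyes, 0.951 in liver, 0.824 in prostate, 0.926 in MEFs, 0.551 in brain and 0.201 in testes. It was the lowest member in spleen, and it stayed below 1 TPM in both means in 6 of 8 tissues.

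Irf7 is the transcription factor that amplifies type I interferon production. Irf7 (chr7:141262706-141266481, minus strand) had wild-type means of 46.0 TPM in spleen, 17.2 in liver, 16.5 in eyes, 8.99 in prostate, 7.99 in heart, 1.86 in brain, 1.54 in MEFs and 1.45 in testes. The corresponding Tug1-/- means were 39.2 TPM in spleen, 19.9 in liver, 14.2 in eyes, 7.83 in prostate, 9.44 in heart, 2.45 in brain, 2.08 in MEFs and 1.46 in testes. Its log2 differences had the narrowest range of the 9 genes, from -0.23 in spleen to 0.42 in MEFs, and it was the only member lower in Tug1-/- prostate (-0.20).

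To ask in which tissues the loss of Tug1 went with a different level of these genes, members with a mean of at least 1 TPM over both groups and a ratio of at least 1.5-fold were counted, beside the share of all genes of at least 1 TPM past the same limit. Member medians are over all 9 genes, whatever their level, while medians of all genes are over those of at least 1 TPM. In prostate and MEFs 4 and 3 genes were past the limit and higher in Tug1-/-, in spleen 2 were higher and 3 lower, and in liver 2 were higher. The prostate count includes Oas1a, which reached 1 TPM over both groups only through the Tug1-/- mean. No gene at 1 TPM or more passed the limit in brain, heart, eyes or testes.

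**Figure D2:**
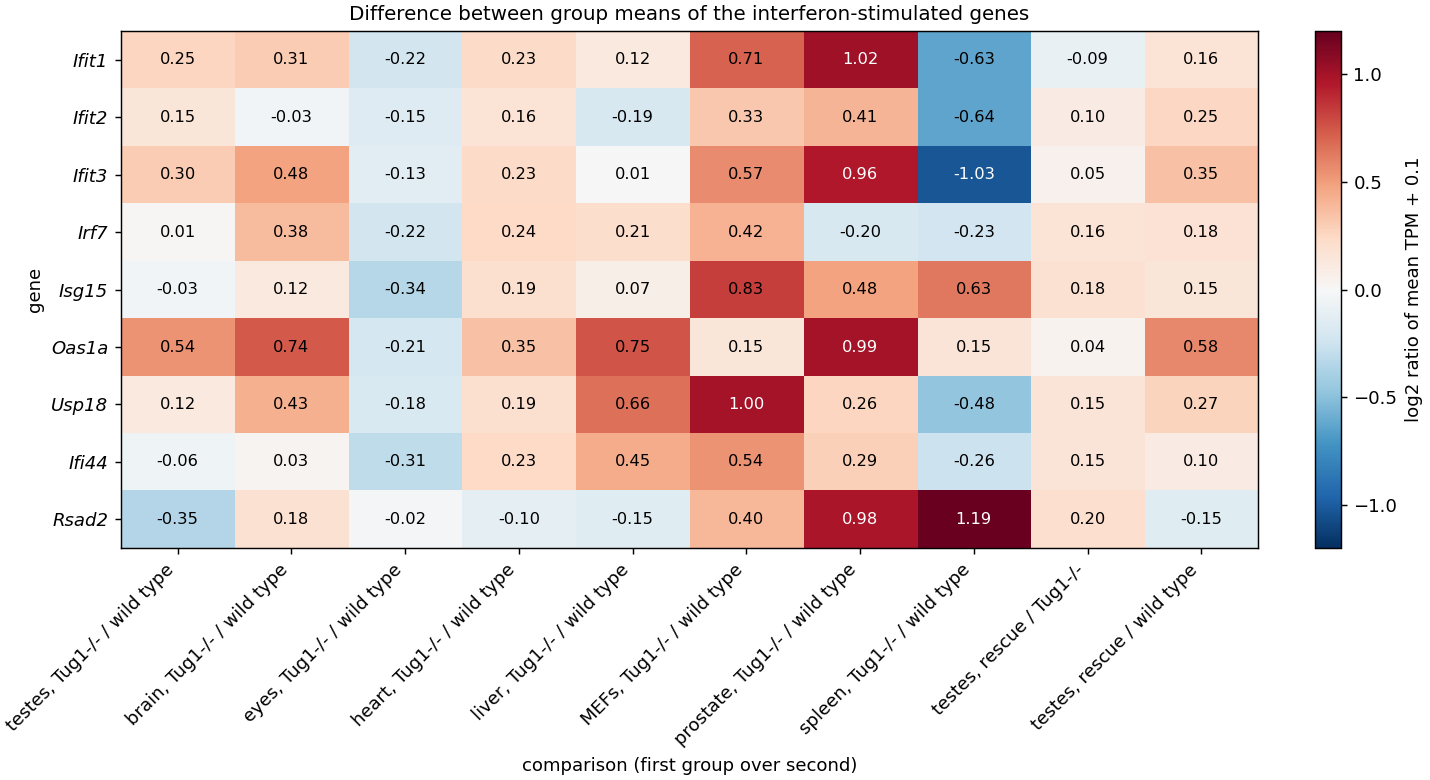
Log2 ratio of group mean TPM + 0.1 (colour and number) for each of the 9 genes (rows) in the 8 comparisons of Tug1-/- with wild type and the 2 comparisons of rescue testes (columns). MEFs hold 9 positive values, eyes hold 9 negative ones (Rsad2 is positive after centring on all genes), and the spleen column runs from -1.03 for Ifit3 to 1.19 for Rsad2.

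In MEFs all 9 genes were higher in the Tug1-/- mean, as were 59.7% of all genes, with log2 differences from 0.15 (Oas1a) to 0.995 (Usp18) and a median of 0.54, where the median over all genes was 0.05. Ifit1, Isg15 and Usp18 were at least 1.5-fold higher, and no member was that much lower. With 1 TPM added in place of 0.1, Ifit1 (0.583) was just short of the limit (0.585). At the same limit 3.09% of all genes were higher and 3.34% lower. The summed level of the 9 genes was 41.4 TPM in wild type and 63.7 in Tug1-/- MEFs, a ratio of 1.54.

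Other interferon-stimulated genes in MEFs were higher for 24 of the 31 at 1 TPM or more, with a median of 0.26, and 3 of them passed 1.5-fold upward, Oasl2 (1.56 to 2.65 TPM, wild type to Tug1-/-), Rnf213 (10.5 to 18.1) and Rtp4 (1.39 to 2.34). The chemokine gene Cxcl10 stood at 4.37 and 10.2 TPM and the MHC class I gene H2-Q4 at 1.91 and 4.52. One gene of the same list lay past the limit in the other direction, Ifi27l2a, at 6.45 TPM in wild type and 3.01 in Tug1-/-. Macrophage markers were measured in these cultures too: 8 of 10 were lower in Tug1-/- (median -0.39), their sum was 470 TPM in wild type and 381 in Tug1-/-, and none was at 0. Among them Cd14 was higher (11.2 and 22.8 TPM) and Mrc1 lower (16.9 and 10.6), and the part of these cells in the member values was not tested.

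In prostate 8 of 9 genes were higher in the Tug1-/- mean, as were 59.0% of all genes, with a median log2 difference of 0.48 against 0.04 for all genes, and of 0.72 over the 8 members at 1 TPM or more. Ifit1, Ifit3, Oas1a and Rsad2 were at least 1.5-fold higher, each between 0.96 and 1.02 on the log2 scale, and no member was that much lower. Oas1a reached the minimum of 1 TPM only through its Tug1-/- mean (0.680 and 1.45 TPM). Its place in the count and in the median of 0.72 is therefore not independent of its difference. With 1 TPM added in place of 0.1 it no longer passed (0.55). For all genes the shares were 4.67% higher and 2.05% lower. Their normalized counts ranged from 24.3 for Oas1a to 161 for Ifit3, and the Tug1-/- mean rests on 2 mice.

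Of the other interferon-stimulated genes 26 of 37 were higher in Tug1-/- prostate (median 0.14) and 8 passed 1.5-fold, led by Ifi27l2a (26.5 to 89.2 TPM), Ifit3b (1.01 to 2.14) and Ifi203 (1.44 to 2.88). Of the genes induced by interferon-gamma 12 of 13 were higher (median 0.48) and 5 passed the limit, with Ido1 (0.676 to 1.84, at 1 TPM only through the Tug1-/- mean), Iigp1 (2.45 to 4.76) and Cxcl9 (1.15 to 2.26). Macrophage markers differed in the same direction: 9 of 10 were higher with a median of 0.61, 6 of them past 1.5-fold, and their sum was 264 TPM in wild type and 349 in Tug1-/-. Mrc1 was at 6.41 and 16.4 TPM, Adgre1 at 5.27 and 9.07 and C1qa at 50.4 and 79.7. No marker of that list was at 0, and its part in the prostate values was not tested.

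In spleen 3 genes were higher and 6 lower in the Tug1-/- mean, where 29.6% of all genes were higher. Rsad2 (53.9 and 123 TPM) and Isg15 (112 and 173) were at least 1.5-fold higher, while Ifit1 (22.2 and 14.3), Ifit2 (28.2 and 18.1) and Ifit3 (58.8 and 28.8) were at least 1.5-fold lower. At this limit 4.99% of all genes were higher and 4.37% lower. The SD over the 9 log2 differences was 0.69, the widest of the 8 tissues, against 0.54 over all genes. The mean normalized counts behind these values ran from 198 for Ifi44 to 5811 for Rsad2.

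The median difference of all genes was itself -0.11 in spleen and in eyes and 0.10 in heart. Relative to it the member medians were -0.15 in spleen, -0.10 in eyes and 0.12 in heart. With that shift taken out, 3 spleen genes stayed past 1.5-fold, Rsad2 and Isg15 upward and Ifit3 downward, while Ifit1 (-0.53) and Ifit2 (-0.53) did not. The same step turned the sign of Rsad2 in eyes (-0.02 to 0.09), of Ifit3 in liver (0.01 to -0.0030) and of Irf7 in testes (0.01 to -0.02), all close to 0. The summed level of the 9 genes was higher in Tug1-/- spleen (361 and 431 TPM) although their median was lower, since Isg15 and Rsad2 make up much of the sum.

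Counts of the other lists in spleen are to be read beside the general shift there. Of 47 other interferon-stimulated genes 41 were lower in Tug1-/- (median -0.25), with Ifit3b (12.5 to 6.28 TPM), Ddx60 (8.42 to 4.72) and Mx2 past 1.5-fold, while Isg20 was past it in the other direction (113 to 199). Of 16 genes induced by interferon-gamma 15 were lower, but their median of -0.09 was no lower than that of all genes, and none passed the limit. All 6 neutrophil markers were at least 1.5-fold higher in Tug1-/- spleen, and their sum was 1431 TPM in wild type and 2939.6 in Tug1-/-. S100a9 stood at 939 and 1852 TPM, Camp at 94.0 and 246, Elane at 20.8 and 67.7 and Mpo at 13.1 and 44.5. All 5 B cell markers were lower (median -0.44), and their sum was 4544 TPM in wild type and 3400.0 in Tug1-/-. The liver genes Alb, Apoa1 and Ttr summed to 21.3 TPM in the wild-type and 0.245 in the Tug1-/- spleen mean. The part of these in the member values was not tested.

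**Figure D3:**
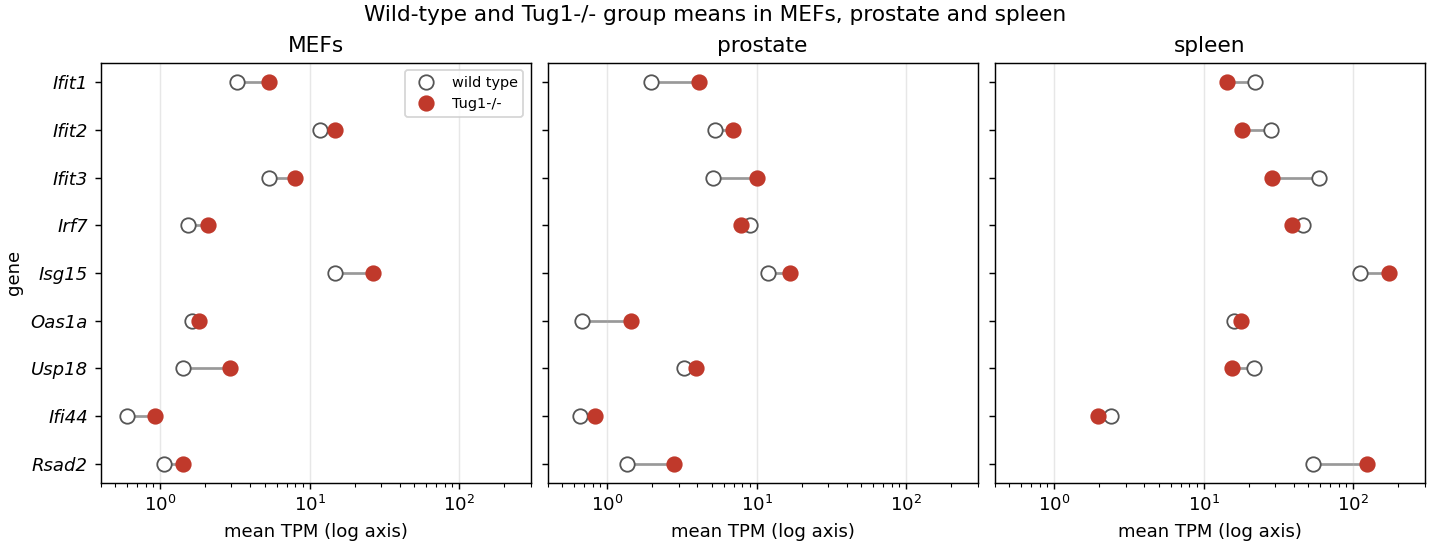
Wild-type (open circles) and Tug1-/- (filled circles) group means in TPM on a log axis (horizontal) of the 9 genes (rows) in MEFs, prostate and spleen, each pair joined by a line. All filled circles lie to the right in MEFs and all but Irf7 do in prostate, whereas in spleen the Ifit genes lie to the left and Isg15 and Rsad2 to the right.

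In liver 7 of 9 genes were higher in the Tug1-/- mean, Ifit3 among them only without centring on all genes (52.7% of all genes were higher), with a median of 0.12 against 0.01 for all genes. Oas1a (1.29 and 2.24 TPM) and Usp18 (3.88 and 6.21) were at least 1.5-fold higher and none was that much lower, where 2.97% of all genes were higher and 2.25% lower. With 1 TPM added in place of 0.1 neither passed. Of the other interferon-stimulated genes 29 of 40 were higher (median 0.09), and Apol9a alone passed the limit (34.6 and 56.0 TPM). Of 10 macrophage markers 9 were higher (median 0.46), with Adgre1 at 12.3 and 21.0 TPM and a list sum of 234 in wild type and 326 in Tug1-/-, none of them at 0. Their part in the liver values was not tested.

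In brain 8 of 9 genes were higher in the Tug1-/- mean, as were 39.8% of all genes, with a median of 0.31 against -0.02 for all genes. None of the 7 genes at 1 TPM or more passed 1.5-fold, where 1.72% of all genes were higher and 3% lower. Ifit3 came closest, at 16.3 and 22.9 TPM. Other interferon-stimulated genes were divided, 20 of 36 higher with a median of 0.02, and the 2 past the limit were Ifi27l2a (4.54 and 9.62 TPM) and Herc6 (4.07 and 2.27). The neutrophil genes S100a9 (10.1 and 1.38 TPM) and S100a8 (4.73 and 0.711) were lower in the Tug1-/- brain mean.

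In heart 8 of 9 genes were higher, with Rsad2 the exception (24.6 and 22.8 TPM). The log2 differences ran from -0.10 to 0.35, none past 1.5-fold, where 1.67% of all genes were higher and 1.82% lower. Since 75.3% of all genes were higher in the Tug1-/- heart mean, the signs there are close to those of genes at large. Of the other interferon-stimulated genes 36 of 43 were higher (median 0.17), with Oas2 past the limit (4.40 and 7.27 TPM). All 10 macrophage markers were higher too (median 0.35), with a sum of 330 TPM in wild type and 449 in Tug1-/- and none at 0, and their part in the heart values was not tested.

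In eyes all 9 genes were lower in the Tug1-/- mean, Rsad2 only without centring on all genes, with log2 differences from -0.34 (Isg15) to -0.02 (Rsad2) and an SD over members of 0.09, the narrowest of the 8 tissues. None of the 8 at 1 TPM or more passed 1.5-fold, where 2.84% of all genes were higher and 3.82% lower, and 27.6% of all genes were higher in Tug1-/-. Other interferon-stimulated genes were divided, 19 of 46 higher. Oasl1 (9.24 and 4.93 TPM) and Apol9a lay past the limit downward, and Ifi27l2a (125 and 318) and Isg20 (3.69 and 7.95) lay past it upward. Macrophage markers went the other way from the members, with 9 of 10 higher (median 0.28).

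Testes held the lowest levels, and only Ifit3, Irf7 and Isg15 reached 1 TPM over the wild-type and Tug1-/- means. Of the 9 genes 6 were higher in the Tug1-/- mean, Irf7 only without centring on all genes (62.1% of all genes were higher), with a median of 0.12 against 0.03 for all genes (0.01 over the 3 members at 1 TPM), and none at that level passed 1.5-fold, where 2.34% of all genes were higher and 2.9% lower. All 9 macrophage markers at 1 TPM or more were higher in Tug1-/- testes as well (median 0.34), and their part was not tested. Rescue means were 0.701 TPM for Ifit1, 0.933 for Ifit2, 2.26 for Ifit3, 1.65 for Irf7, 1.84 for Isg15, 0.489 for Oas1a, 1.12 for Usp18, 0.234 for Ifi44 and 0.394 for Rsad2.

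Those rescue means address whether the transgene went with a return toward wild type. Against Tug1-/- testes 8 of 9 genes were higher in rescue (52.8% of all genes were), by a median of 0.15, with none past 1.5-fold (1.04% of all genes higher, 2.56% lower). Against wild type 8 of 9 were higher as well (60.4% of all genes were), by a median of 0.18, again with none of the 4 genes at 1 TPM past the limit (2.27% higher, 4.33% lower). The summed level was 8.10 TPM in wild type, 8.88 in Tug1-/- and 9.62 in rescue testes. These comparisons share groups, and the genetic labels and the doxycycline food differ with them, so that their effects on these genes cannot be told apart.

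Few receptors, sensors or antigen presentation genes passed the limit, but few of all genes did either. Per Tug1-/- comparison, between 1.67% (heart) and 4.99% (spleen) of all genes were higher past it. Between 1.82% (heart) and 4.37% (spleen) were lower past it. With lists this short, the low counts below do not set them apart from genes at large. No receptor or signal transducer (12 genes, among them Ifnar1, Jak1 and Irf9) passed 1.5-fold in any Tug1-/- comparison except Ifnlr1 in eyes (2.97 and 1.89 TPM), and the medians of that list lay between -0.13 in spleen and 0.14 in testes. Of 17 nucleic acid sensors and their factors, Tlr7 passed in liver (0.828 and 1.57 TPM), in prostate (0.777 and 1.66), reaching 1 TPM in both only through the Tug1-/- mean, and, downward, in MEFs (4.14 and 2.67), and Ikbke passed in MEFs (3.85 and 6.07). Of 15 genes of MHC class I antigen presentation, H2-Q4 and H2-K1 (26.3 and 40.7 TPM) passed in MEFs and none in another Tug1-/- comparison. Of 20 interferon genes 11 were listed in no tissue, and Ifng in spleen was the only one at 1 TPM or more, at 2.27 and 1.97. Plasmacytoid dendritic cells are known for making type I interferon, and 5 of 6 of their markers were lower in Tug1-/- spleen (median -0.22, against -0.11 for all genes), with Klk1 the exception at 11.8 and 105 TPM.

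**Figure D4:**
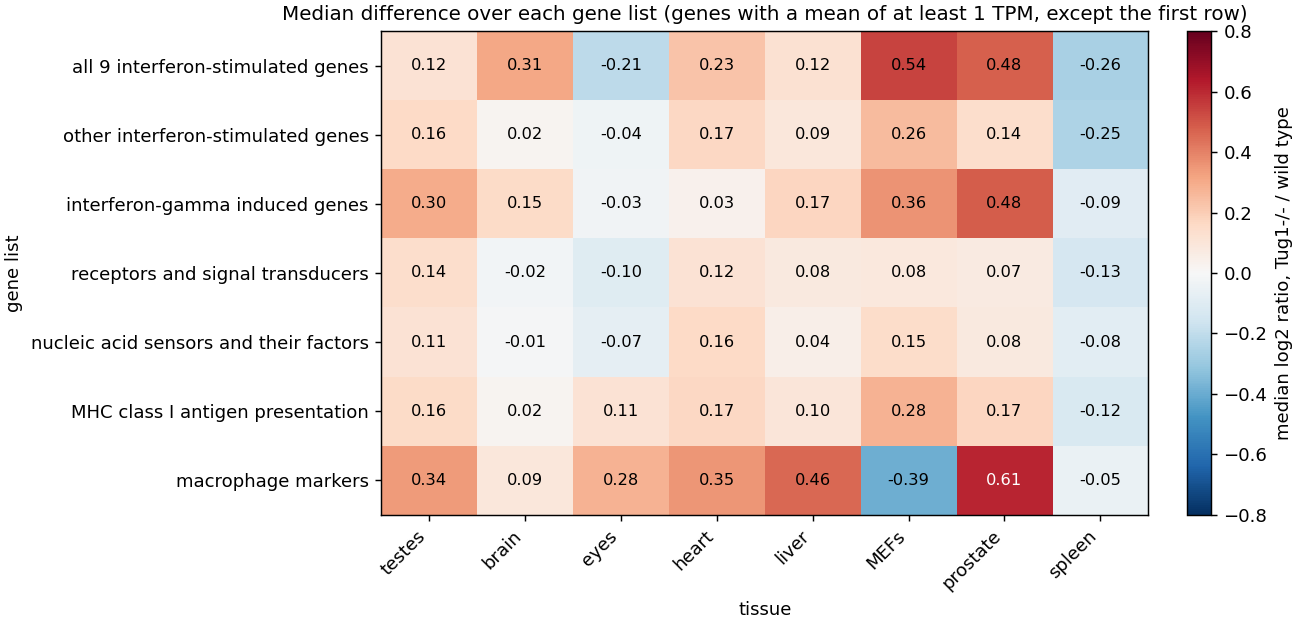
Median log2 ratio of Tug1-/- over wild-type mean TPM + 0.1 (colour and number) for the 9 genes and 6 other gene lists (rows) in 8 tissues (columns); lists other than the first are limited to genes with a mean of at least 1 TPM. The member median was highest in MEFs (0.54) and prostate (0.48), while that of receptors and signal transducers stayed between -0.13 and 0.14. Over members of at least 1 TPM the median was 0.49 in MEFs and 0.72 in prostate, where Oas1a is included only through its Tug1-/- mean.

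The genes most like the members in level were sought over the 17 group means. The search covered 16390 genes outside the members that were listed in all 8 tissues and reached 1 TPM in at least 1 mean. The highest Pearson correlations with the mean log2 level of the members were those of Calcrl (0.96), Tap2 (0.95), Psme1 (0.94), Ccl6 (0.94) and Rtp4 (0.94). Tap2, a peptide transporter for MHC class I, is on the list of antigen presentation, and Rtp4 is among the other interferon-stimulated genes. With brain left out, 1 of these 5 genes was still among the first 5 in level. In difference, over the 8 tissues, the highest correlations with the member median were those of Csrnp2 (0.99), Zscan21 (0.98), Tmem209 (0.97), Med12 (0.96) and Taf15 (0.96). Of these, 3 were still among the first 5 with brain left out. A correlation takes no account of size. The log2 difference largest in size among these 5 genes was -0.30 (Csrnp2 in eyes), while the member median ran from -0.26 in spleen to 0.54 in MEFs. Both sets are the top of a long ranking over few points that share libraries, and are given as a description. The same measure for the members, which enter the median themselves, was 0.95 for Ifit1, 0.89 for Ifit3, 0.86 for Ifit2, 0.81 for Ifi44 and Usp18, 0.61 for Irf7, 0.55 for Oas1a, 0.45 for Isg15 and 0.0016 for Rsad2.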

How the data were processed

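Polyadenylated RNA was sequenced from the samples described above (46 of 52 lie behind the tables; 6 testes samples of F1 hybrid mice were not analysed here). The authors processed reads with CASAVA 1.8.2, aligned them with STAR to the mouse genome with GENCODE vM16 annotation (GRCm38), used featureCounts on reads with a unique place, and dropped a gene when each of its replicates had fewer than 3 reads. Whether counting used strand is not given in the sources used here. The authors deposited group means in TPM per tissue, and a signal column with the mean normalized count over all libraries of a tissue (not for testes). A further 14 columns hold the authors' own comparisons (DESeq2 fold changes, errors, statistics and p-values) and were not used, so no test, p-value or error is given. Depth per sample is unknown.

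From 6 columns, log2 ratios of mean TPM + 0.1 were computed, and genes with a mean of at least 1 TPM over the 2 groups were counted past 1.5-fold. The members and lists were chosen with earlier results of these data known. Named genes are the 9 members, Tug1, up to 3 genes per list and comparison with the largest ratio past 1.5-fold, and the 5 most alike in level and in difference. Mx2, Ifng, Apol9a in eyes, S100a9 in spleen, and Ifi27l2a in spleen and heart were named outside that rule, after their values were seen. Alternatives were pseudocounts of 0.01 and 1 TPM, no minimum level, a fold limit of 2, centring on the median of all genes, the summed TPM, and leaving out brain or Ifit3 and Oas1a. With no replicate spread, a log2 value was taken as unmoved within log2 of 1.5, and a count within 1.5 times. Promoters came from RefSeq (GRCm38.p6), matched by symbol for 8 of 9 genes. The ratio step was tested on simulated data. Python 3.11.15 was used, with numpy 2.4.6, pandas 2.3.3 and matplotlib 3.10.9.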

Additional observations from a re-analysis of the deposited data

How the results depend on the processing

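Every group value is a mean with no spread, and the authors' own errors and p-values were not used. No difference described above was therefore checked against replicates here, and low genes such as Oas1a in brain rest on few reads. No paired analysis was possible because the tables hold group means. Of 110 values for whole comparisons recomputed under the alternatives, 101 were unmoved, and 270 values for single genes moved by less than 1.5-fold. Of these, 3 changed sign, all with centring on all genes: Irf7 in testes (-0.02), Ifit3 in liver (-0.0030) and Rsad2 in eyes (0.09). With a pseudocount of 1 TPM the MEF count of 3 went to 2, without Ifit1, and the prostate count of 4 went to 3, without Oas1a. In brain 1 gene (against 0) passed 1.5-fold with no minimum level. In liver the count of 2 went to 0 with a pseudocount of 1 TPM, to 0 with a fold limit of 2, and to 1 without Ifit3 and Oas1a. In MEFs the count of 3 went to 0 at a fold limit of 2. In prostate the count of 4 went to 1 at that limit and to 2 without Ifit3 and Oas1a, both of which were among the 4. In spleen the count of 5 in either direction went to 3 with centring on all genes and to 2 at the limit of 2. Of 50 medians 1 differed in sign, that of spleen, where the summed TPM was higher in Tug1-/-. With brain left out, 1 of the 5 genes most alike in level and 3 of the 5 most alike in difference were shared with those named. The causes were not tested beyond what each alternative removes.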

Other observations

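Ifi27l2a, an interferon-inducible gene, was at 125 TPM in wild-type and 318 in Tug1-/- eyes, where all 9 genes were lower in the Tug1-/- mean (all but Rsad2 after centring on all genes), and at 6.45 and 3.01 TPM in MEFs, where all 9 were higher. In prostate (26.5 and 89.2 TPM) and brain (4.54 and 9.62) it was higher in Tug1-/-, like 8 of the 9 genes. In spleen it was at 656 and 498 TPM, lower like 6 of the 9, and in heart at 114 and 96.3, where 8 of the 9 were higher. In testes it was at 3.45 TPM in wild type and 3.85 in Tug1-/-, and its liver values are not given here. Its values were not checked against replicates here, and the difference between tissues was not tested.

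Ido1, which encodes an enzyme that breaks down tryptophan and is induced by interferon-gamma, was at 29.3 TPM in wild-type, 3.19 in Tug1-/- and 0.250 in rescue testes, while Gbp2 (2.28 and 3.67 TPM) and Iigp1 (1.83 and 2.93) of the same list were higher in Tug1-/- than in wild-type testes. B2m, the light chain of MHC class I, was at 220 TPM in wild-type, 293 in Tug1-/- and 138 in rescue testes. In heart all 5 B cell markers were at least 1.5-fold lower in the Tug1-/- mean, as were 1.82% of all genes. Pax5 (2.14 TPM in wild type and 0.903 in Tug1-/-) reached 1 TPM only through the wild-type mean. The sum of the 5 was 42.2 TPM in wild type and 19.3 in Tug1-/-. The part of B cells in the heart values of the 9 genes was not tested.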
